A study of Mus musculus with 17 samples.

Results

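10 transcription factor genes of the coelomic epithelium and the mesothelium were followed across 7 groups of mouse embryonic fibroblasts (MEFs). They are Wt1, Bnc1, Bnc2, Gata4, Gata5, Gata6, Tbx18, Tcf21, Myrf and Nr2f1, 10 of the 33440 genes that both deposited tables hold. The genes were listed by name with results of these data known, and they were chosen by their levels and folds across these groups, so levels and folds of the 10 are given as a description and support nothing by themselves.

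The cells came from E13.5 embryos of the labelled strain C57bl/6, carried Usp28 genotypes written -/-, +/- and +/+, and were all immortalized with the retrovirus pRetroSuper-shp19ARF, a short hairpin RNA against p19ARF. Usp28 encodes a deubiquitinase. The immortalized set holds 9 libraries, 3 each of -/-, +/- and +/+ cells. The Ras set holds 8 libraries, 2 in each of 4 groups whose cells had also received activated HRas (G12V) from pBabe: -/-, +/- and +/+ cells with the vector pWZL-GFP, and +/+ cells with pWZL-USP28, called USP28 cells here. The labels do not say how many embryos gave the cells of a genotype, so a genotype and the line of cells that carries it cannot be told apart. The design text calls the immortalized replicates biological and says only that the Ras groups were run in duplicate, so p-values of the Ras set may measure technical spread.

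The coelomic epithelium is the sheet that lines the body cavity of the embryo, and its later form, the mesothelium, covers the lungs, the gut, the liver and, as epicardium, the heart. Its cells express a set of transcription factors with Wt1 as the best known, and can leave the sheet to become fibroblasts and smooth muscle of the organ below. Several of the same factors, among them Bnc2, Tbx18 and Nr2f1, are also used by mesenchyme, the loose tissue from which embryonic fibroblasts are grown.

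Levels are given in RPM, a gene's reads per 1000000 reads of a group, rebuilt from the log2 concentration and log2 ratio in the authors' deposited tables. The header of the table taken as the immortalized set does not name the set, and levels are not compared across the tables, which were normalized apart. Each group of immortalized cells had 11384000 to 12425500 reads in all and each Ras group 11365000 to 13950500, which makes 1 read worth 0.0717 to 0.0880 RPM. Intervals are 95% intervals. For a level they cover counting error alone up to 10 reads, and counting error plus the dispersion fitted to the comparison above that, and a group with 0 reads is given the limit that 3 reads allow, 0.215 to 0.264 RPM. For a fold they cover counting error alone where a group had 1 to 3 reads. No values of single libraries were used, so no spread between replicates is given. A gene is called higher or lower where the authors' p, adjusted over all genes with a mean of at least 1 RPM in the 2 groups, is under 0.05. The Usp28 transcript was present in every group, at 13.3, 9.96 and 16.5 RPM in immortalized -/-, +/- and +/+ cells and at 14.8, 18.6, 26.4 and 26.5 RPM in Ras -/-, +/-, USP28 and +/+ cells, so it does not check the labels.

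The genotypes differed in sex-linked genes. Xist measured 126 RPM in immortalized -/- and 296 RPM in +/- cells, against 89.7 RPM in +/+ cells, and 0.215 RPM in Ras -/-, 25.5 RPM in Ras +/- and 323 RPM in USP28 cells, against 336 RPM in Ras +/+ cells. Eif2s3y, on the Y chromosome, measured 14.9 RPM in immortalized -/- and 0 in +/- cells, against 18.6 RPM in +/+ cells, and 22.4 RPM in Ras -/-, 0.151 RPM in Ras +/- and 0.0745 RPM in USP28 cells, against 0 in Ras +/+ cells. In the immortalized set the +/- cells thus differed from +/+ cells in Y-linked expression as well as in genotype, and in the Ras set the -/- cells did. Ras +/- cells differed from Ras +/+ cells in Xist. Immortalized -/- and +/+ cells had both Xist and Eif2s3y. Genotype and the source of the cells therefore cannot be told apart in either set.

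**Figure D1:**
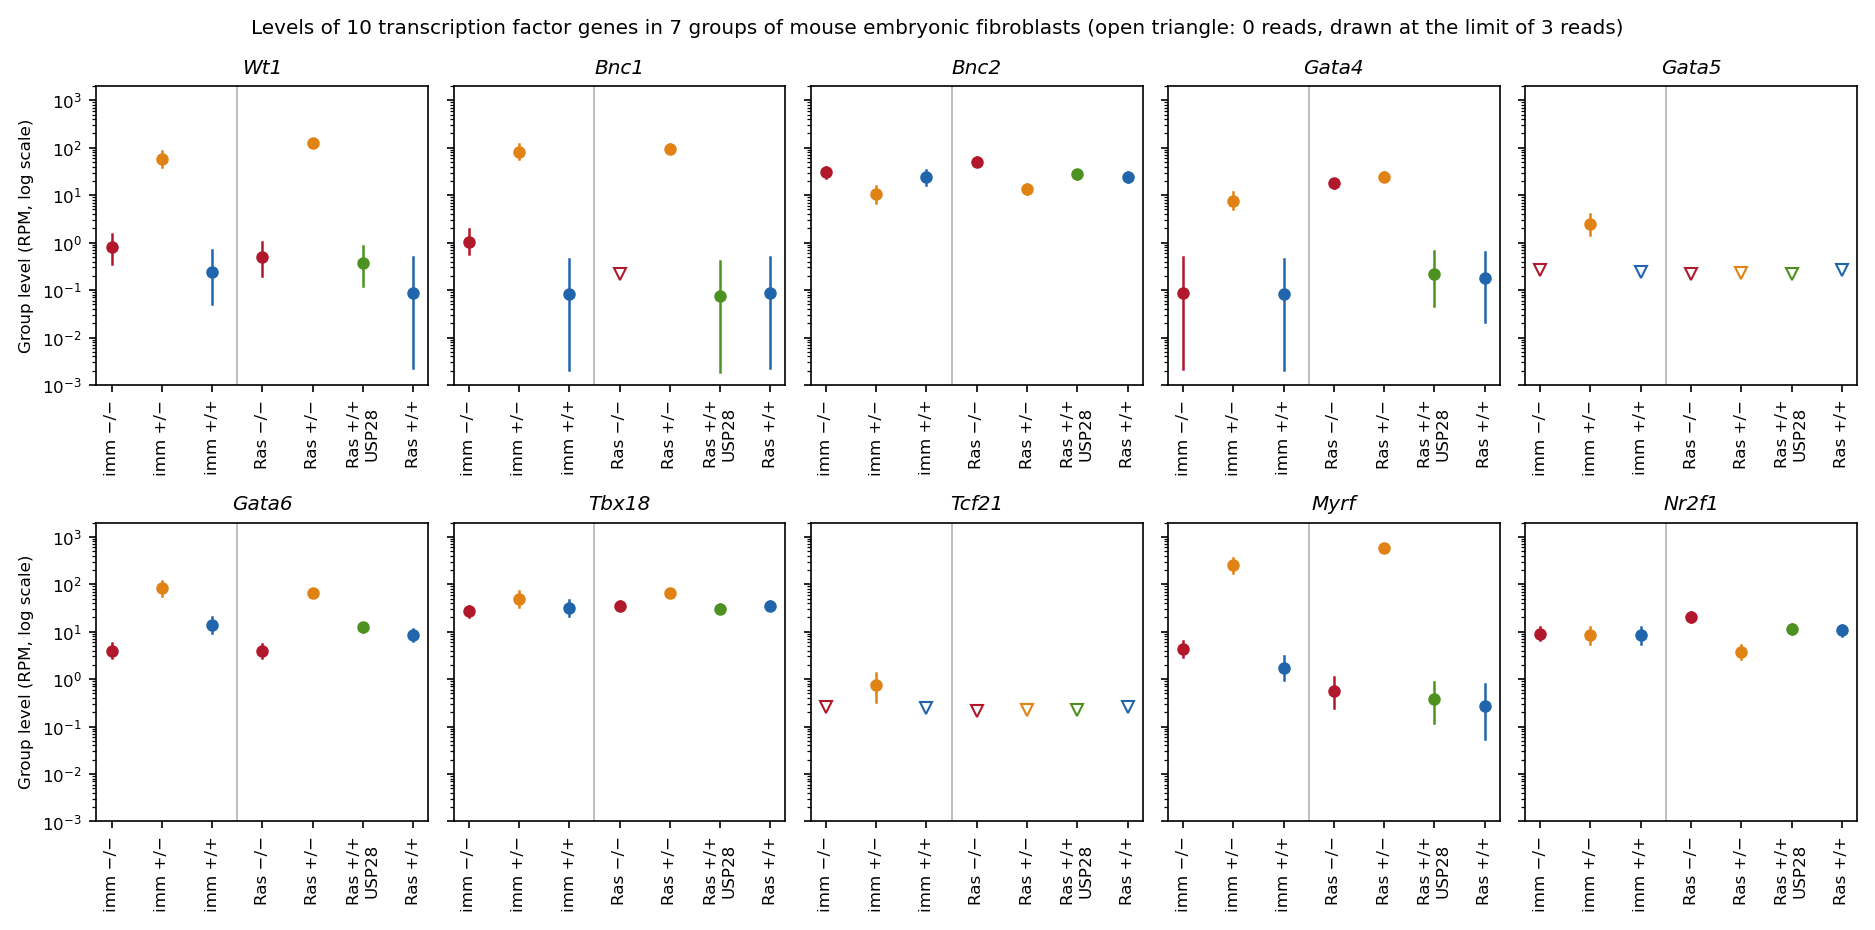
Levels of the 10 genes in RPM on a log axis, 1 point per group with its 95% interval, the immortalized groups (imm) left of the grey line and the Ras groups right of it. Wt1, Bnc1 and Myrf stand high in the +/- groups of both sets, while Gata5 and Tcf21 have reads in immortalized +/- cells alone.

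Wt1, a zinc finger factor of the coelomic epithelium and of kidney and gonad development, had 725 and 1645 reads in +/- cells of the 2 sets and at most 9 reads in any other group. Immortalized cells had 0.797 RPM of Wt1 in -/- cells (9 reads) and 58.3 RPM in +/- cells (interval 40.1 to 84.7), against 0.243 RPM in +/+ cells (3 reads). In the Ras set Wt1 measured 0.502 RPM in -/- cells (7 reads), 124 RPM in +/- cells (interval 102 to 152) and 0.373 RPM in USP28 cells (5 reads), against 0.0882 RPM in +/+ cells (1 read). The +/- level stood clear of every other group of its set, and the intervals of the other groups overlapped. In bulk RNA, fewer cells of a type and less RNA per cell cannot be told apart, here and in all that follows. The log2 fold of +/- over +/+ cells in the authors' deposited tables was 7.91 for Wt1 in the immortalized set (counting interval 6.35 to 10.2) and 10.5 in the Ras set (7.99 to 15.8).

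Myrf followed the same order. It encodes a membrane-bound factor that frees its DNA-binding part by cutting itself. It is best known from myelinating oligodendrocytes and is also needed in organs that arise from the coelomic epithelium. Myrf measured 4.33 RPM in immortalized -/- cells and 252 RPM in +/- cells (interval 174 to 364), against 1.72 RPM in +/+ cells. With activated HRas, Myrf measured 0.573 RPM in -/- cells (8 reads), 583 RPM in +/- cells (interval 478 to 711) and 0.372 RPM in USP28 cells (5 reads), against 0.266 RPM in +/+ cells (3 reads). Per kilobase of merged exons, which allows levels of different genes to be set side by side, Myrf had the highest level of the 10 genes in +/- cells of both sets, 29.4 RPM per kilobase in the immortalized set and 68.1 in the Ras set. Bnc1 came next with 17.8 and 20.7 RPM per kilobase, while Gata5 and Tcf21 were lowest in immortalized +/- cells with 0.750 and 0.317 RPM per kilobase. In the authors' deposited tables, the Myrf log2 fold of +/- over +/+ cells was 7.19 (SE 0.49) in the immortalized set and 11.1 (counting interval 9.56 to 13.4) in the Ras set. Immortalized -/- cells had a Myrf log2 fold of 1.33 over +/+ cells in the authors' deposited table (SE 0.45) and were not called.

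The basonuclins Bnc1 and Bnc2 are paired zinc finger factors, Bnc1 known from keratinocytes, germ cells and mesothelium and Bnc2 from fibroblasts and other mesenchyme. The pair went in opposite directions in +/- cells. Bnc1 measured 1.05 RPM in immortalized -/- cells (12 reads) and 82.8 RPM in +/- cells (interval 57.1 to 120), against 0.0813 RPM in +/+ cells (1 read). Among Ras cells Bnc1 had 0 reads in -/- cells, 96.3 RPM in +/- cells (interval 78.4 to 118) and 1 read in USP28 cells, against 1 read in +/+ cells. Its log2 fold of +/- over +/+ cells in the authors' deposited tables was 9.99 in the immortalized set (counting interval 7.51 to 15.3) and 10.1 in the Ras set (7.61 to 15.4). Bnc1 was thus near the counting floor outside +/- cells, with immortalized -/- cells above +/+ cells by their intervals. It was under the level minimum in that comparison, and with no minimum it was not called (adjusted p = 0.0855, from the authors' edgeR p).

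Bnc2 was read in every group. It measured 30.4 RPM in immortalized -/- cells and 10.4 RPM in +/- cells, against 23.7 RPM in +/+ cells. In the Ras set Bnc2 measured 51.0 RPM in -/- cells, 13.4 RPM in +/- cells and 27.5 RPM in USP28 cells, against 24.4 RPM in +/+ cells. The lowest level of each set was that of +/- cells, apart from the others by interval. The highest was that of -/- cells, whose interval overlapped that of +/+ cells in the immortalized set and no other in the Ras set. In the authors' deposited tables the Bnc2 log2 fold over +/+ was -1.19 (SE 0.41) in immortalized +/- cells, -0.86 (SE 0.25) in Ras +/- cells and 1.07 (SE 0.23) in Ras -/- cells. The call in immortalized +/- cells lay at the threshold: its adjusted p was 0.0497, from the authors' edgeR p, and ran from 0.0497 to 0.405 over the alternatives tried, of which no level minimum gave 0.0673.

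The basonuclin promoters are shown because the paralogs moved in opposite directions. Both are 300-base windows from RefSeq (build GRCm38.p6), 5′ to 3′ on the minus strand, from 250 bases before to 50 bases after an annotated start, with CG dinucleotides in capitals. The Bnc1 window, chr7:81992250-81992549, lies at the 5′ end of the gene. The Bnc2 window, chr4:84610148-84610447, belongs to a start inside the gene, which runs on upstream to base 84675275.
Bnc1: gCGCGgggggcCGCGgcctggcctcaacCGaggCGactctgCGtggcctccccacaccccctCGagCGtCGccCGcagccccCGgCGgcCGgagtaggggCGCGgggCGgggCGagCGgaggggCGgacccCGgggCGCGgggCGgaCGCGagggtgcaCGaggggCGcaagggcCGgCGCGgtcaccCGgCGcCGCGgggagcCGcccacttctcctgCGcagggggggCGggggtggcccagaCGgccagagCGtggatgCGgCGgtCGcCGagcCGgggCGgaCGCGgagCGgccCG
Bnc2: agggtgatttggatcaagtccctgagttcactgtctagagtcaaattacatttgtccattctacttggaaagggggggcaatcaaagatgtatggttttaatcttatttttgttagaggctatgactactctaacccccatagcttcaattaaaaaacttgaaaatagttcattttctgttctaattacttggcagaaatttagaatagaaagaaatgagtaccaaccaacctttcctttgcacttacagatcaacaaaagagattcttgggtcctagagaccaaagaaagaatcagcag
The Bnc1 window holds 50 CG dinucleotides and is 83.3% G or C, and 0.855% of the 32851 mouse windows in the same table hold as many. The Bnc2 window holds 0 and is 36.3% G or C, and 5.43% of all windows hold no CG, against a median of 7 CG over all windows.

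Gata4, Gata5 and Gata6 are zinc finger factors that bind GATA sites and are used in heart, endoderm and the mesothelium of heart and liver. They did not share one pattern. Gata6 measured 4.01 RPM in immortalized -/- cells (interval 2.75 to 5.84) and 82.1 RPM in +/- cells (56.6 to 119), against 14.0 RPM in +/+ cells (9.44 to 20.8). Ras cells had Gata6 at 3.94 RPM in -/- cells, 65.9 RPM in +/- cells and 12.4 RPM in USP28 cells, against 8.57 RPM in +/+ cells. In each set the Gata6 order was +/- above +/+ above -/-, with no overlap of intervals between these 3 genotypes, and it was the one gene of the 10 called lower in -/- cells of both sets. Its log2 fold over +/+ in the authors' deposited tables was -1.81 (SE 0.35) in immortalized -/-, 2.53 (SE 0.40) in immortalized +/-, -1.12 (SE 0.32) in Ras -/- and 2.94 (SE 0.26) in Ras +/- cells.

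Gata4 was high in +/- cells of both sets and also in Ras -/- cells. It had 1 read in immortalized -/- cells and 7.60 RPM in +/- cells (interval 5.01 to 11.6), against 1 read in +/+ cells. In the Ras set Gata4 measured 17.6 RPM in -/- cells (13.9 to 22.3), 24.4 RPM in +/- cells (19.5 to 30.6) and 0.223 RPM in USP28 cells (3 reads), against 0.177 RPM in +/+ cells (2 reads). Both Ras genotypes with a changed Usp28 allele stood above the other Ras groups, and their intervals overlapped. The log2 fold of Gata4 over +/+ in the authors' deposited tables was 6.55 in immortalized +/- (counting interval 4.03 to 11.9), 6.64 in Ras -/- (4.78 to 9.70) and 7.11 in Ras +/- cells (5.25 to 10.2).

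Gata5 and Tcf21 were seen in immortalized +/- cells alone. Gata5 had 31 reads there, 2.46 RPM (interval 1.48 to 4.09), against 0 reads in immortalized -/- and +/+ cells and in all 4 Ras groups. Over immortalized +/+ cells it was at least 10.1-fold higher, taking 3 reads over the group for 0. Tcf21, a basic helix-loop-helix factor of the epicardium and of visceral mesenchyme, had 9 reads in immortalized +/- cells, 0.745 RPM (counting interval 0.331 to 1.37), and 0 reads in the other 6 groups. That is 3.05-fold above immortalized +/+ cells, again taking 3 reads for 0. Neither fold covers the counting error of the reads in +/- cells. Tcf21 had too few reads to be tested at the level minimum in any comparison. With no minimum it was not called in immortalized +/- against +/+ cells (adjusted p = 0.0632, from the authors' edgeR p). The promoter windows of this pair, RefSeq on the minus strand in the same format, were chr2:180334630-180334929 for Gata5 and chr10:22820094-22820393 for Tcf21. They are shown as those of the genes with reads in 1 group, with CG dinucleotides in capitals.
Gata5: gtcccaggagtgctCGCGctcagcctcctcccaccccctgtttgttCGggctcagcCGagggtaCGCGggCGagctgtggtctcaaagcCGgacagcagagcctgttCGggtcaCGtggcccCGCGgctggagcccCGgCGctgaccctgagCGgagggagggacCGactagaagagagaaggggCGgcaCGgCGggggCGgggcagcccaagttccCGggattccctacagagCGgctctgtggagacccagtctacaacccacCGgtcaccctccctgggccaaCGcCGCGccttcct
Tcf21: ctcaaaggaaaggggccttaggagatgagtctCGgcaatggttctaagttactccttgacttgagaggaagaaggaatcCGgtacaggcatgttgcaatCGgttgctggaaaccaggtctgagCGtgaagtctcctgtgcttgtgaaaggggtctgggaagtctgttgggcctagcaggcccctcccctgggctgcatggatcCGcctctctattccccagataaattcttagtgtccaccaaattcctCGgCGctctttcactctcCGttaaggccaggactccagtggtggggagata
The Gata5 window holds 26 CG dinucleotides, and 16.9% of all windows hold as many, while the Tcf21 window holds 8, close to the median of 7.

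Tbx18, a T-box factor of the epicardium and of urogenital mesenchyme, was read at similar levels in most groups. It measured 26.9 RPM in immortalized -/- cells and 48.6 RPM in +/- cells, against 32.0 RPM in +/+ cells, with overlapping intervals. Ras cells had Tbx18 at 35.6 RPM in -/- cells, 65.5 RPM in +/- cells (interval 53.2 to 80.7) and 30.7 RPM in USP28 cells, against 35.4 RPM in +/+ cells (28.3 to 44.2). Ras +/- cells alone stood apart, with a log2 fold of 0.89 (SE 0.22) over +/+ cells in the authors' deposited table, and immortalized +/- cells had 0.61 (SE 0.39) and were not called.

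Nr2f1, an orphan nuclear receptor also called COUP-TFI that acts in neural and mesenchymal development, was lowest in +/- cells among the Ras groups. It measured 9.05 RPM in immortalized -/- cells and 8.36 RPM in +/- cells, against 8.34 RPM in +/+ cells. Its Ras levels were 20.3 RPM in -/- cells (interval 16.1 to 25.6), 3.79 RPM in +/- cells (2.70 to 5.33) and 11.4 RPM in USP28 cells, against 10.6 RPM in +/+ cells (8.13 to 13.9). Its groups could not be ordered in the immortalized set, and in the Ras set -/- cells stood above and +/- cells below USP28 and +/+ cells, whose intervals overlapped. The Nr2f1 log2 fold over +/+ in the authors' deposited table was 0.93 (SE 0.26) in Ras -/- and -1.49 (SE 0.32) in Ras +/- cells, and 0.01 (SE 0.43) in immortalized +/- cells.

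**Figure D2:**
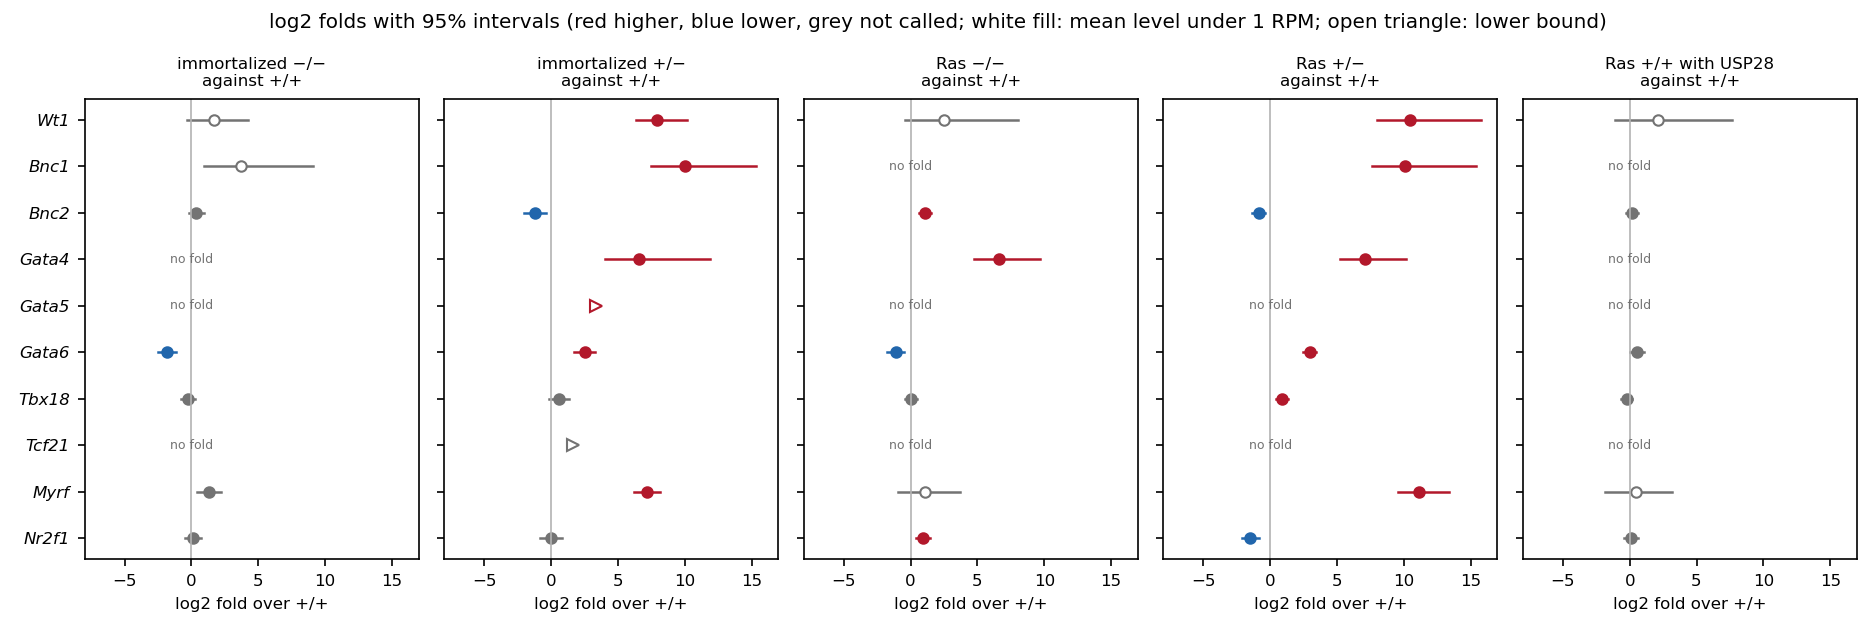
Deposited log2 folds over +/+ cells with 95% intervals for the 10 genes in each of the 5 comparisons, red where called higher, blue where called lower and grey where not called. Open points mark genes with a mean under 1 RPM, triangles lower bounds against 3 reads, and "no fold" genes with at most 3 reads in both groups.

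Counts of calls among the 10 genes use the contrasts that chose the genes, so nothing is read from their distance to the share of all genes. In immortalized +/- against +/+ cells 9 of the 10 could be tested, 6 were called higher (Wt1, Bnc1, Gata4, Gata5, Gata6 and Myrf) and 1 lower (Bnc2), where 8.25% of all genes tested were called, 5.04% higher and 3.21% lower. In Ras +/- against +/+ cells 8 could be tested, 6 were called higher (Wt1, Bnc1, Gata4, Gata6, Tbx18 and Myrf) and 2 lower (Bnc2 and Nr2f1), where 34.1% of all genes were called, 17.5% higher and 16.7% lower. Wt1, Bnc1, Gata4 and, in the immortalized set, Gata5 passed the level minimum only through the +/- group, as did Myrf in the Ras set.

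The -/- cells were counted in the same way. In immortalized -/- against +/+ cells 5 could be tested, and Gata6 was called lower and none higher, where 4.21% of all genes were called, 1.29% higher and 2.93% lower. In Ras -/- against +/+ cells 5 could be tested, with Bnc2, Gata4 and Nr2f1 called higher and Gata6 lower, where 27.6% of all genes were called, 15.2% higher and 12.4% lower. USP28 against +/+ cells left 4 genes that could be tested (Bnc2, Gata6, Tbx18 and Nr2f1). None was called by the edgeR p of the authors' deposited table, and 1.09% of all genes were, 0.0907% higher and 0.997% lower. One of these 4, Gata6, had an unadjusted p under 0.05 (p = 0.0422 in the authors' deposited edgeR table, log2 fold 0.53, interval 0.02 to 1.03).

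Neither table compares -/- with +/- cells, and the 2 were set against each other through the shared +/+ group. In the immortalized set 9 of the 10 could be tested, with Bnc2 called higher in -/- cells and Wt1, Bnc1, Gata4, Gata6 and Myrf lower, where 6.81% of all genes were called, 2.45% higher and 4.36% lower. The log2 fold of -/- over +/- cells was -6.19 for Wt1 (interval -7.40 to -4.99), -5.86 for Myrf (-6.71 to -5.01) and 1.55 for Bnc2 (0.75 to 2.35). In the Ras set 8 could be tested, with Bnc2 and Nr2f1 called higher in -/- cells and Wt1, Bnc1, Gata6, Tbx18 and Myrf lower, where 36.5% of all genes were called, 18.6% higher and 17.9% lower. Myrf had a log2 fold of -9.99 there (interval -11.1 to -8.91), and Bnc1, with 0 reads in -/- cells, was at least 448-fold lower. Gata4 had a log2 fold of -0.47 in the same comparison (interval -0.94 to 0.00) and was not called.

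The +/- effect was then compared between the sets as the difference of the log2 folds, Ras minus immortalized. Of 8 genes that could be tested, Myrf was called higher (difference 3.73, interval 1.89 to 5.56) and Nr2f1 lower (-1.48, interval -2.53 to -0.44), where 13.3% of all genes were called, 6.86% higher and 6.42% lower. The Nr2f1 call was lost with no level minimum (adjusted p = 0.0570 by the Wald test), with a doubled dispersion (0.250) and at a threshold of 0.01. For the other 6 the intervals were wide for the genes with 1 to 3 reads in +/+ cells, from -3.28 to 3.48 for Bnc1 and from -0.70 to 5.08 for Wt1, and narrower for Gata6 (-0.52 to 1.34). For the -/- effect 4 genes could be tested, none was called by this approximate Wald test, and 20.7% of all genes were, 11.4% higher and 9.24% lower. Nr2f1 (difference 0.81, interval 0.00 to 1.62) had an unadjusted p of 0.0492 in that Wald test. Across the genes tested in both +/- comparisons, 399 of 15211 were called higher in both, which is 66.1% of the 604 called higher in immortalized +/- cells and 15.0% of the 2662 called higher in Ras +/- cells. Wt1, Bnc1, Gata4, Gata6 and Myrf belong to these, while Bnc2 is among the 169 called lower in both.

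**Figure D3:**
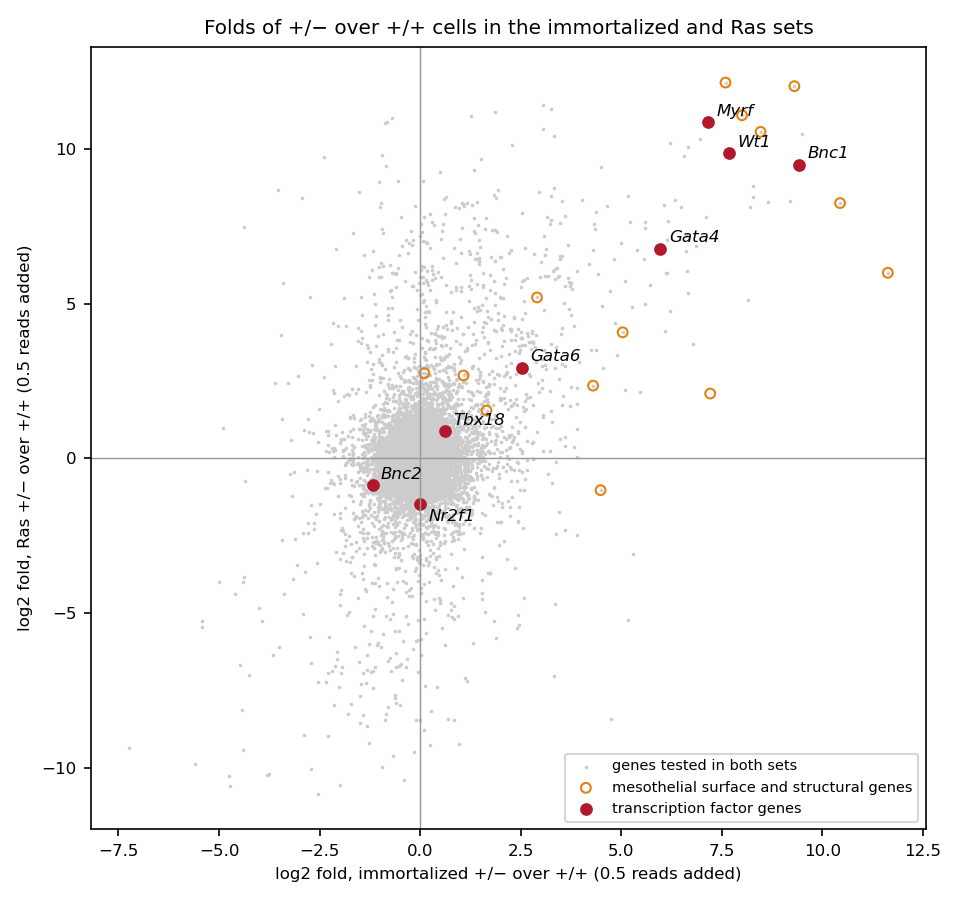
Log2 folds of +/- over +/+ cells, with 0.5 reads added, in the immortalized set (horizontal) and the Ras set (vertical), 1 point per gene tested in both. Red points are 8 of the 10 factors, without Gata5 and Tcf21, which have 0 reads in the Ras groups, and orange rings are mesothelial surface genes. Bnc1, Wt1, Myrf and Gata4 lie at the upper right, among the rings.

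Over the 7 groups, with log2 levels centred within each set, likeness was measured as the root mean square difference. The smallest value between any 2 of the 10 was 0.45, between Bnc2 and Nr2f1, followed by 0.52 between Gata5 and Tcf21 and 0.69 between Wt1 and Myrf. The largest was 4.85, between the paralogs Bnc1 and Bnc2. The search covered 18010 genes with at least 1 RPM in 1 group or more, a count that includes those of the 10 at that level. Outside the 10, the genes closest to Wt1 were Ptprb (0.40), Ildr2 (0.45), Pkhd1l1 (0.58), Krt16 (0.59) and Krt17 (0.69). Ptprb measured 1.51 RPM in immortalized -/- cells and 69.5 RPM in +/- cells, against 0.650 RPM in +/+ cells. Its Ras levels were 0.502 RPM in -/- cells, 240 RPM in +/- cells and 0.447 RPM in USP28 cells, against 0.177 RPM in +/+ cells. Closest to Bnc1 were Foxa2 (0.67), Smpd3 (0.70), Krt17 (0.75), Krt8 (0.93) and Mst1r (1.03). Closest to Tcf21 were Dcaf12l2 (0.02), Erv3 (0.04), Elobl (0.11), Cyp11b1 (0.16) and Nkx6-1 (0.17), each at 1.08 to 2.20 RPM in immortalized +/- cells and at most 1 read in the other groups. These are likenesses over 7 groups that share their libraries, and in the case of Tcf21 they rest on a handful of reads. Outside +/- cells Wt1 had at most 9 reads in a group and Bnc1 at most 12, so their distances also depend on the 0.5 reads added.

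The 10 genes lie on 9 chromosomes, with Wt1 and Gata5 both on chromosome 2 but far apart. In GRCm38 (GENCODE M21) Wt1 spans chr2:105126529-105173616 on the plus strand, Myrf chr19:10208272-10240748 on the minus strand, Bnc1 chr7:81966672-81992292 and Bnc2 chr4:84275095-84675275, both on the minus strand, and Gata6 chr18:11052064-11085635 on the plus strand. On the minus strand, Gata4 spans chr14:63198922-63271692, Gata5 chr2:180325133-180334699, Tbx18 chr9:87702800-87731260, Tcf21 chr10:22817281-22820174 and Nr2f1 chr13:78188973-78199757. The nearest protein-coding gene on either side of each, 20 neighbours in all, was looked at by position alone, a choice made after the values of the 10 genes were seen. In immortalized +/- cells 14 neighbours could be tested, with 1 called higher and 3 lower, 28.6% beside 8.25% of all genes. In Ras +/- cells 14 could be tested, with 4 called higher and 4 lower, 57.1% beside 34.1% of all genes. Near Wt1, Bnc1, Gata4, Gata6 and Myrf, the 5 genes called higher in both sets, no neighbour was called in immortalized +/- cells, although both neighbours of Wt1 and of Gata4 and 1 of Bnc1 had too few reads to be tested. In Ras +/- cells Hdgfl3 beside Bnc1 was called lower, with 4.32 RPM against 13.8 RPM in +/+ cells. Slco4a1 beside Gata5 was called lower in +/- cells of both sets, with 1.73 RPM in immortalized +/- against 8.55 RPM in +/+ cells and 0 reads in Ras +/- against 4.55 RPM in +/+ cells.

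The neighbours of Myrf, Tmem258 at 0.448 kilobases and Dagla at 4.52 kilobases, were both called higher in Ras +/- cells and neither was called in immortalized +/- cells, a difference between the sets that was not tested for them. Dagla, which makes the endocannabinoid 2-arachidonoylglycerol, measured 104 RPM in Ras +/- against 6.55 RPM in +/+ cells, and 31.6 RPM in immortalized +/- against 23.1 RPM in +/+ cells. Tmem258 measured 43.2 RPM in Ras +/- against 20.4 RPM in +/+ cells, and 32.0 RPM in immortalized +/- against 41.5 RPM in +/+ cells. Nt5e, which encodes the surface nucleotidase CD73 and is the next gene on 1 side of Tbx18, was called higher in +/- cells of both sets, with 19.9 RPM in immortalized +/- against 6.11 RPM in +/+ cells and 55.3 RPM in Ras +/- against 3.97 RPM in +/+ cells. Eya4, beside Tcf21, was called lower in immortalized +/- cells (20.7 RPM, against 47.6 RPM in +/+ cells) and higher in Ras +/- cells (45.0 RPM, against 0.614 RPM in +/+ cells).

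**Figure D4:**
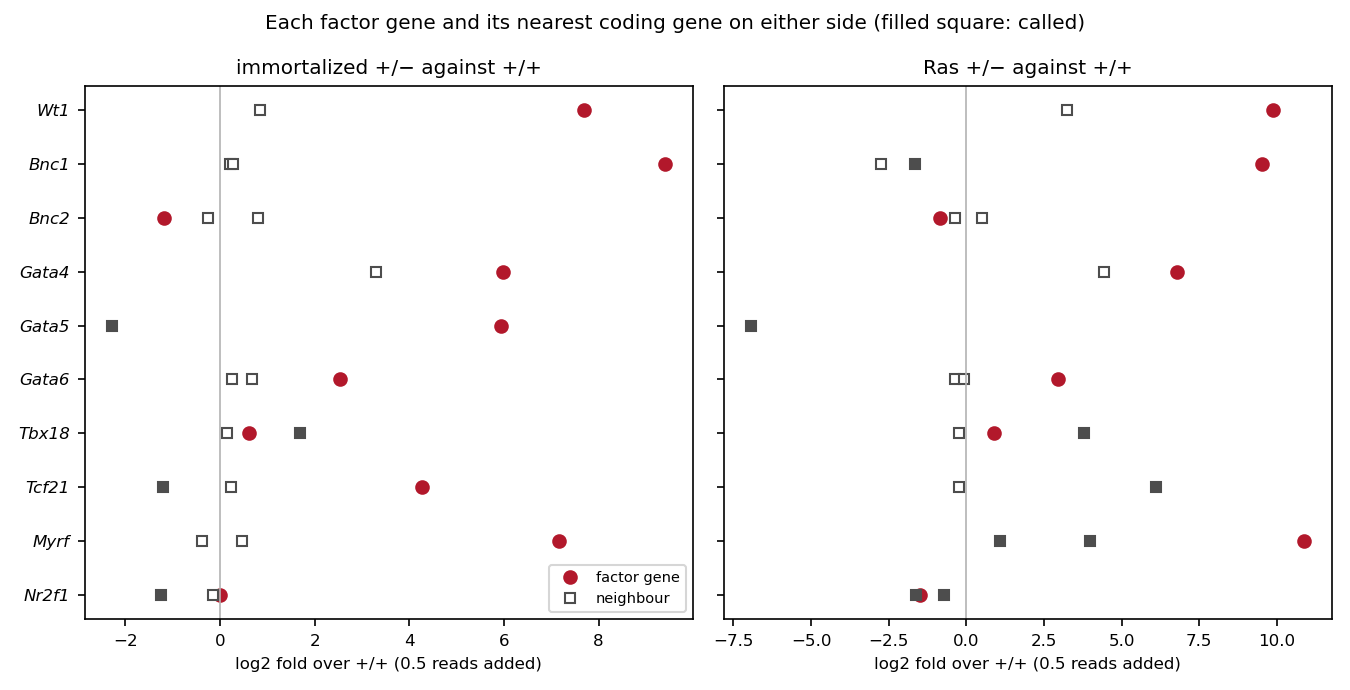
Log2 folds of +/- over +/+ cells, with 0.5 reads added, for each factor gene (red) and its nearest protein-coding gene on either side (squares, filled where called), in the immortalized set (left) and the Ras set (right). Genes with at most 3 reads in both groups are not drawn. Both neighbours of Myrf are called in the Ras set and neither in the immortalized set.

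Genes on the opposite strand overlap exons of 3 of the 10 and have values in both tables. Whether counting used the strand is not given in the sources used here, so reads of such a pair could have been shared. The pseudogene 4833418N17Rik overlaps 98 bases of Bnc1 and measured 1.60 RPM in immortalized +/- cells, 1.51 RPM in Ras +/- cells and 0 in the other 5 groups. Gata5os overlaps 258 bases of Gata5 and measured 0.576 RPM in immortalized +/- cells and 0 elsewhere. A830082K12Rik overlaps 123 bases of Nr2f1 and measured 11.8 RPM in Ras -/-, 2.86 RPM in Ras +/- and 6.56 RPM in USP28 cells, against 7.72 RPM in Ras +/+ cells. Among the Ras groups A830082K12Rik and Nr2f1 were both highest in -/- and lowest in +/- cells.

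RefSeq promoter windows were used for 6 of the 10 genes, with 7 windows (Bnc1, Bnc2, Gata5, Tbx18, Tcf21 and 2 for Nr2f1). Windows on chromosome 18, which holds Gata6, were left out for the 10 genes and kept among all windows. Short motifs were searched on both strands, and no word of one motif lies inside a word of another. A GATA word (AGATAA and the variant AGATAG, with TGATAA and the variant TGATAG counted as well) was found in 1 of the 7 windows, that of Tcf21 at 31 bases before the start, against 29.8% of all windows. The GC box of Egr and Wt1 type (TGGGCG) was found in 2 windows, Bnc1 and Tbx18, against 18.5%. The E-box (CANNTG) was in 4 windows, against 72.3%. The T-box word (AGGTGT, 13.7% of all windows), the nuclear receptor word (AGGTCA, 16.3%), the TEAD word (GGAATG, 14.7%) and the AP-1 word (TGANTCA, 7.81%) were in none of the 7. With 7 windows these matches are a description of the letters present.

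Genes of the mesothelial surface, outside the 10, were for the most part higher in +/- cells. The list holds membrane proteins, keratins of simple epithelia and secreted proteins, 15 genes with values in both tables, while Muc16 was not analysed here. In immortalized +/- cells 12 of 14 tested were called higher and none lower, where 8.25% of all genes were called. The median log2 fold was 6.12, where the median of all genes was -0.00. Ras +/- cells had 12 of 13 called higher and 1 lower, where 34.1% of all genes were called. Their median was 5.21 (4.08 with genes at 0 reads set to their bound), against 0.01 for all genes. Several of these genes, among them Upk1b, Krt8 and Lrrn4, passed the level minimum only through the +/- group in both sets. Their direction was thus fixed by the filter, and nothing is read from these counts and medians. Upk1b, a uroplakin of mesothelium and bladder, measured 3.22 RPM in immortalized -/- cells and 383 RPM in +/- cells, against 0.568 RPM in +/+ cells. Krt8, a keratin of simple epithelia, measured 0.215 RPM in Ras -/-, 466 RPM in Ras +/- and 0.149 RPM in USP28 cells, against 0.263 RPM in Ras +/+ cells. Lrrn4, a mesothelial membrane protein, measured 128 RPM in immortalized +/- cells, against 0 reads in +/+ cells, at least 526-fold higher. Of -/- against +/- cells, 13 of 14 were called lower in -/- cells in the immortalized set, where 4.36% of all genes were. In the Ras set 13 of 13 were called lower, where 17.9% of all genes were. Krt8 and Lrrn4 again passed the minimum only through +/- cells. Calb2, which encodes calretinin, had 0 or 1 read in all 7 groups.

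The surface genes did not keep to the pattern of Wt1 in every group. Msln, which encodes mesothelin, was high in Ras USP28 and +/+ cells, where Wt1 was at 5 reads and 1 read. It measured 5.09 RPM in Ras -/-, 209 RPM in Ras +/- and 466 RPM in USP28 cells, against 425 RPM in Ras +/+ cells. Msln, Krt7, Krt19 and Efemp1 were called lower in Ras -/- against +/+ cells, 4 of the 5 surface genes tested there. Of all genes, 27.6% were called in that comparison. The 5 had a median log2 fold of -6.37, against -0.01 for all genes, and Krt19 and Efemp1 passed the level minimum only through +/+ cells. Krt19, a keratin, measured 0.215 RPM in Ras -/- against 71.5 RPM in +/+ cells. In immortalized -/- cells 2 of 9 were called higher (Upk1b and Efemp1) and 3 lower, where 4.21% of all genes were called. Among those lower was the adhesion protein gene Cdh1, with 0.440 RPM against 5.22 RPM in +/+ cells. In USP28 cells 0 of 5 were called by the authors' edgeR p, where 1.09% of all genes were.

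**Figure D5:**
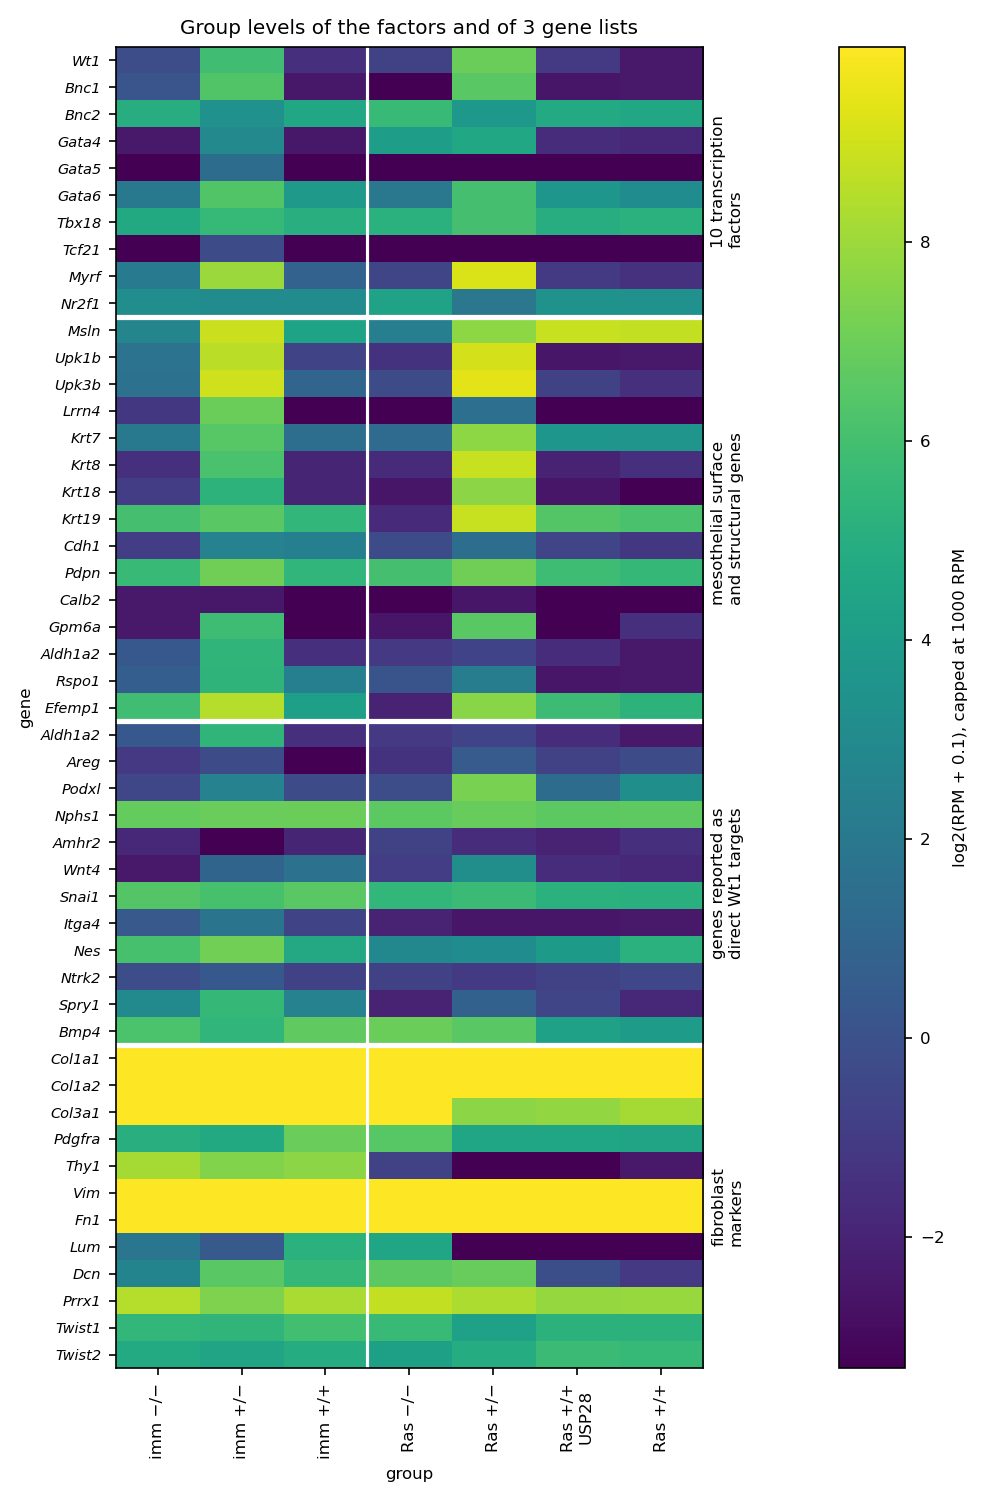
Group levels as log2(RPM + 0.1), capped at 1000 RPM, of the 10 factors, the mesothelial surface list, genes reported as Wt1 targets and fibroblast markers (rows) in the 7 groups (columns). The +/- columns are bright for Wt1, Bnc1 and Myrf and for Upk1b, Upk3b and Krt8, and Col1a1 and Col1a2 are bright in all columns.

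Other transcription factors of coelomic and visceral mesoderm did not move as one group. Of the 20 listed, 4 of 15 tested were called higher and 5 lower in immortalized +/- cells (median log2 fold -0.59), and 4 of 11 higher and 6 lower in Ras +/- cells (median -1.17). These were 60.0% called beside 8.25% of all genes, and 90.9% beside 34.1%. Hand2, a basic helix-loop-helix factor of heart and limb, measured 40.0 RPM in immortalized +/- against 8.61 RPM in +/+ cells, and had 0 reads in all Ras groups. Foxf2, a forkhead factor of gut mesenchyme, measured 1.49 RPM in immortalized +/- against 16.5 RPM in +/+ cells. Tbx20, a cardiac T-box factor, measured 0.645 RPM in Ras -/-, 0.682 RPM in Ras +/- and 130 RPM in USP28 cells, against 112 RPM in Ras +/+ cells. Lhx9, a factor of the gonadal ridge, measured 144 RPM in Ras -/- and 0.454 RPM in Ras +/- cells, against 28.6 RPM in +/+ cells. In Ras -/- cells 6 of 11 were called higher and 2 lower, where 27.6% of all genes were called, and in immortalized -/- cells 0 of 14 higher and 4 lower, where 4.21% were. In Ras -/- against +/+ cells Foxf1 passed the level minimum only through -/- cells, and Emx2 and Tbx20 only through +/+ cells. In Ras +/- against +/+ cells Foxf1 passed it only through +/- cells, and Lhx9, Tbx5 and Tbx20 only through +/+ cells.

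Paralogs of the 10 genes, 14 in all, were called in both directions in +/- cells. In immortalized +/- cells 1 of 9 tested was called higher (Tbx3) and 2 lower (Tbx2 and Egr1), 33.3% beside 8.25% of all genes. In Ras +/- cells 1 of 6 was higher (Gata2) and 1 lower (Gata3), 33.3% beside 34.1% of all genes. Nr2f2, the paralog of Nr2f1, was not called in either. In Ras -/- cells 5 of 8 were called higher, with Tbx3 at 20.1 RPM and Tbx4 at 28.5 RPM, against 0 reads and 1 read in Ras +/+ cells, and 1 lower, where 27.6% of all genes were called. Tbx3 and Tbx4 passed the level minimum only through -/- cells, so their direction was fixed by the filter and nothing is read from this count. Immortalized -/- cells had 1 of 9 called higher and 2 lower, where 4.21% of all genes were called.

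Partners and cofactors were present throughout, with none of the 14 at 0 reads. Zfpm1, a FOG cofactor that binds GATA factors, was called higher in +/- cells of both sets, with 112 RPM in immortalized +/- against 20.96 RPM in +/+ cells and 57.6 RPM in Ras +/- against 17.4 RPM in +/+ cells. Tmem98, which binds Myrf and restrains its cutting, measured 111 RPM in Ras +/- against 14.5 RPM in +/+ cells. Counts of this list were 2 of 14 higher and 0 lower in immortalized +/-, 3 higher and 3 lower in Ras +/-, 2 higher and 3 lower in Ras -/- cells, and 0 in immortalized -/- and USP28 cells. As shares called, these were 14.3% beside 8.25% of all genes in immortalized +/-, 42.9% beside 34.1% in Ras +/- and 35.7% beside 27.6% in Ras -/- cells. The counts of 0 stood beside 4.21% of all genes in immortalized -/- and 1.09% in USP28 cells, shares too low for 14 genes to read anything from them.

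Genes reported elsewhere as direct Wt1 targets were called in both directions. In +/- cells 5 were higher and 1 lower of 9 tested in the immortalized set, and 4 higher and 1 lower of 6 in the Ras set. Median log2 folds were 2.44 and 1.59. These were 66.7% called beside 8.25% of all genes, and 83.3% beside 34.1%. Aldh1a2, Podxl and Itga4 passed the level minimum only through +/- cells in the immortalized set, as did Wnt4 in the Ras set. Their direction was thus fixed by the filter, and nothing is read from these counts and medians. Aldh1a2 also belongs to the surface list and to the retinoic acid list. In -/- cells 1 was higher and 1 lower of 6 in the immortalized set and 1 higher and 2 lower of 5 in the Ras set. USP28 cells had 2 of 5 lower (Podxl and Nes). Of all genes, 4.21% were called in immortalized -/-, 27.6% in Ras -/- and 1.09% in USP28 cells. Aldh1a2, the retinaldehyde dehydrogenase of the coelomic epithelium, was called higher in immortalized +/- cells and had too few reads to be tested in Ras +/- cells. It measured 41.9 RPM in immortalized +/- cells, against 0.243 RPM in +/+ cells, and 0.529 RPM in Ras +/- cells (7 reads), against 0.0882 RPM in +/+ cells (1 read). Podxl, a sialomucin of podocytes and mesothelium, measured 5.79 RPM in immortalized +/- against 0.749 RPM in +/+ cells and 156 RPM in Ras +/- against 9.67 RPM in +/+ cells. Wider in the retinoic acid pathway, 3 of 13 tested were called higher and 5 lower in immortalized +/- cells. In Ras +/- cells 3 of 9 were called higher and 3 lower. That is 61.5% called beside 8.25% of all genes, and 66.7% beside 34.1%. Aldh1a1, a second retinaldehyde dehydrogenase, was called higher in both, with 78.7 RPM in immortalized +/- against 1.59 RPM in +/+ cells and 363 RPM in Ras +/- against 2.02 RPM in +/+ cells. Cyp26b1, which breaks retinoic acid down, was called lower in both, with 10.2 RPM in immortalized +/- against 44.3 RPM in +/+ cells and 0 reads in Ras +/- against 3.92 RPM in +/+ cells.

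Markers of the cultured cell type and of other cell types stand beside these values. Fibroblast markers had high summed levels in every group, led by Col1a1, Col1a2, Vim and Fn1. The sums were 36714 RPM in immortalized -/- and 45241 RPM in +/- cells, against 42272 RPM in +/+ cells. Ras sums were 18001 RPM in -/-, 16179 RPM in +/- and 10052 RPM in USP28 cells, against 12674 RPM in Ras +/+ cells. Single markers did not all follow the sums. Of the 12, Thy1 and Lum were at 0 reads in Ras +/- and USP28 cells, and Ras +/+ cells had 1 read of Thy1 and 0 of Lum. Ras -/- cells had Thy1 at 0.502 RPM. Dcn measured 99.9 RPM in Ras -/-, 118 RPM in Ras +/- and 0.820 RPM in USP28 cells, against 0.354 RPM in Ras +/+ cells. In all, 1 was called higher and 2 lower in immortalized +/- cells, 25.0% beside 8.25% of all genes. In Ras +/- cells 2 were called higher and 4 lower of 10, 60.0% beside 34.1% of all genes. The 8 surface epithelium markers summed to 153 RPM in immortalized +/- against 8.08 RPM in +/+ cells and to 320 RPM in Ras +/- against 1.95 RPM in +/+ cells, nearly all of it Krt14 (146 and 316 RPM in +/- cells), while Krt5 was at 0 in immortalized +/- cells and Epcam at 0.242 RPM. Their part in the values of the 10 genes was not tested.

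Of the 8 endoderm and liver markers, 1 could be tested in +/- against +/+ cells of each set, Foxa2. It was called higher in +/- cells of both (16.3 and 41.0 RPM), where 8.25% of all genes were called in the immortalized and 34.1% in the Ras set. Foxa2 passed the level minimum only through +/- cells, so its direction was fixed by the filter. Sox17 was at 0 and Afp and Alb at 0 or 1 read in all groups. Cardiac muscle markers summed to 21.3 RPM in immortalized +/- against 5.46 RPM in +/+ cells and to 19.4 RPM in Ras +/- against 3.63 RPM in +/+ cells, with Tnnt2 leading and Myh6 and Nkx2-5 at 0 in +/- cells of both. Gonad and adrenal markers summed to 6.26 to 18.5 RPM over the groups, with Foxl2 at 0 in all. Kidney markers summed to 98.5 to 165 RPM, of which Nphs1 gave most in 7 groups, with Umod at 0 in all. Endothelial markers summed to 22.1 RPM in immortalized +/- against 14.1 RPM in +/+ cells and to 20.2 RPM in Ras +/- against 5.90 RPM in +/+ cells. Esam was called higher in both, 1 of 3 tested in the immortalized set and 1 of 4 in the Ras set. That is 33.3% beside 8.25% of all genes, and 25.0% beside 34.1%. Esam too passed the level minimum only through +/- cells. Cldn5 was at 0 or 1 read in all groups. Macrophage and leukocyte markers summed to 18.5 to 33.2 RPM. Skeletal muscle markers summed to 27.8 to 126 RPM, with Myog and Myf5 at 0 in all groups, and neural and glial markers to 48.4 to 133 RPM. Their part in the values of the 10 genes was likewise not tested.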

How the data were processed

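Poly(A) RNA of E13.5 mouse embryonic fibroblasts was, per the labels' protocols, made into libraries with 1 of 2 NEBNext kits, not named per library, and read on a Genome Analyzer IIx. The submitters' processing notes name CASAVA, FastQC, Bowtie 0.12.8, edgeR and the build mm9, and whether counting used the strand is not given in the sources used here. The authors deposited 2 tables of edgeR comparisons, which per the file headers give every gene a log2 concentration, a log2 ratio with +/+ on top and a p-value, and in the Ras table an adjusted p-value. Signs were turned so that folds are over +/+. The second table does not name its set and was taken as the immortalized one because it lacks the USP28 comparison.

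Group levels in RPM were computed from the concentration and the ratio. The reads behind them came from the steps of values under 20 reads, taken as whole within 0.1 reads. For each comparison 1 common dispersion was fitted to the deposited p-values, and standard errors and intervals follow from it, so they are not measured per gene and are too small for genes that vary more between replicates. Deposited p-values were adjusted by Benjamini-Hochberg over genes with a mean of at least 1 RPM and called under 0.05. A gene that passes this minimum through 1 group alone can be called only in the direction which that group sets. The comparisons of -/- with +/- cells and of Ras with immortalized effects used an approximate Wald test with 0.5 reads added. Floors stand for 3 reads over a group, and intervals of up to 10 reads cover counting error only. Folds given as at least a value set the level of 1 group against this floor and leave out the error of that level. The code was tested on simulated data. Python 3.11.15, numpy 2.4.6, pandas 2.3.3, scipy 1.17.1 and matplotlib 3.10.9 were used. Gene positions and exon lengths came from GENCODE M21 (GRCm38) and promoters from RefSeq (GRCm38.p6).

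The 10 genes and all gene lists were chosen with earlier results of these data known. Named were the 10 genes in every comparison, up to 4 called genes per list and comparison by size of fold, and the 5 genes most alike in level to Wt1, Bnc1 and Tcf21. The neighbours, and genes named beyond that rule (among them Krt19, Nr2f2, Nphs1 and markers at 0), were chosen after their values were seen. Alternatives were no level minimum, a minimum of 5 RPM, folds centred on the median gene, a doubled dispersion, a threshold of 0.01 and, in the Ras set, the authors' own adjusted p-value.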

Additional observations from a re-analysis of the deposited data

Results flagged for a closer look

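The effect of the +/- genotype, measured as the log2 fold of +/- over +/+ cells, differed between the Ras and the immortalized set for 2 of the 8 genes that could be tested. For Myrf the fold was larger in the Ras set, 10.9 against 7.15 in the immortalized set with 0.5 reads added, a difference of 3.73 (interval 1.89 to 5.56, adjusted p = 0.00116 by the approximate Wald test over all genes). The Ras +/+ group had 3 reads of Myrf, so the Ras fold rests on that count. Myrf levels of the 2 sets were normalized apart and are not compared. For Nr2f1 the fold was -1.48 in the Ras set and 0.01 in the immortalized set, a difference of -1.48 (interval -2.53 to -0.44, adjusted p = 0.0434 by the same test over all genes). The Nr2f1 difference was not called with no level minimum (adjusted p = 0.0570 by that Wald test), with a doubled dispersion (0.250) or at a threshold of 0.01. Over all genes tested, 13.3% differed between the sets. The genes were chosen with results of these data known, and the sets differ in library replication as well as in HRas. Their +/+ cells also differed in sex-linked genes, with Eif2s3y at 0 in Ras and 18.6 RPM in immortalized +/+ cells and at 0.151 RPM in Ras and 0 in immortalized +/- cells. Xist also differed within the Ras set, at 25.5 RPM in +/- and 336 RPM in +/+ cells. The part of these sex-linked genes in the 2 differences was not tested.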

How the results depend on the processing

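Of 311 recomputed results of the 10 genes, 302 kept their direction and their side of the threshold, none reversed, and none of the 70 levels moved by more than its error. The Bnc2 call in immortalized +/- cells (adjusted p 0.0497) was lost with no level minimum (0.0673), at 5 RPM (0.0565), with centred folds (0.0504), with a doubled dispersion (0.405) and at a threshold of 0.01. That of Bnc2 in immortalized -/- against +/- cells was lost with a doubled dispersion (0.126). The Nr2f1 difference between the sets was lost with no minimum (0.0570), with a doubled dispersion (0.250) and at 0.01, leaving 1 of the 10 genes called for the +/- effect, against 2. With no minimum, 1 gene was called for the -/- effect, against 0: Gata4, with a difference of 6.21 and 1 read in each of the immortalized -/- and +/+ groups. A minimum of 5 RPM left 4 of 7 calls in immortalized +/- cells: Gata4 and Gata5 fell under the minimum, and Bnc2 was tested and not called.

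Over all genes, a threshold of 0.01 called 1314 for the +/- effect (2021 at 0.05), 2054 for the -/- effect (3114), 424 in immortalized -/- (705) and 753 in immortalized -/- against +/- cells (1158). A doubled dispersion called 1043, 1679, 312 and 578 in the same order, 862 in immortalized +/- (1406) and 2679 in Ras -/- cells (4381). No paired analysis was possible because the tables hold comparisons and no values of single libraries, and leaving out each replicate was not run for the same reason. Levels under 3 reads could not be told from 0, so Gata5 and Tcf21 were not detectable in most groups at this depth.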
